A study of Mus musculus with 22 samples.

Results

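The genes described here are Atf3 and 9 further genes of the integrated stress response and the unfolded protein response, namely Atf4, Atf5, Ddit3, Trib3, Chac1, Sesn2, Ppp1r15a, Xbp1 and Hspa5. They were chosen by name, with earlier results of these data known, and the symbol of each was matched through the annotation to 1 Ensembl ID among the 53379 genes of the count table. All 10 passed the filter on low counts, which kept 40714 genes.

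In the integrated stress response, kinases that sense misfolded protein, missing amino acids, viral RNA or lack of haem phosphorylate the translation factor eIF2α. General translation then slows, while the mRNAs of ATF4 and a few other transcription factors are translated more, and ATF4 and its partners CHOP (encoded by Ddit3) and ATF3 turn on genes of amino acid supply, redox balance and feedback. The unfolded protein response shares the PERK kinase with this pathway and adds the sensors IRE1 and ATF6, which raise chaperones of the endoplasmic reticulum. In brain tissue, Atf3 is also known as a gene that is switched on quickly by seizures and injury.

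The libraries came from adult male C57/BL6N mice given kainate, an excitatory glutamate receptor agonist, or 0.9% NaCl (sham) in the cortex above the right hippocampus, and only kainate mice that had convulsive seizures were included. The left (contralateral) hippocampi were taken after 24 h, 8 mice per treatment were pooled into 3 samples, and sorted NeuN+ nuclei (neurons) and NeuN- nuclei (glia) of each pool were sequenced separately. This gave 3 libraries each of kainate NeuN+, sham NeuN+ and kainate NeuN- nuclei, and 2 of sham NeuN- nuclei (replicates 1 and 3). Each library is therefore a mix of 2 or 4 animals and of every cell type in its gate, and holds nuclear RNA. The labels disagree on the side, since a protocol text names the right hippocampus, and the left is taken here from the titles and the study's methods.

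Total counts were 12058875 to 45428465 per library. Kainate NeuN- replicate 2 and sham NeuN- replicate 1 started from little RNA (0.05 ng, amplified over 15 PCR cycles), and the others from 1 ng (10 cycles). The 4 libraries numbered 1, 1 in each group, had 37158 to 41933 genes with a count, against 45683 to 50104 in the other 7. Which libraries were read in which of the 2 sequencing runs is not given in the sources used here. NeuN+ nuclei were higher than NeuN- nuclei in 6 of 7 neuronal markers and lower in all 23 markers of astrocytes, microglia, oligodendrocytes and their precursors, endothelial cells and pericytes, at FDR below 0.25. Values below are CPM (counts scaled to library size after TMM normalization), the FDR is that of edgeR's quasi-likelihood test over all genes tested, and a gene is called at FDR below 0.25, the threshold of the study's methods. In bulk samples such as these, fewer cells of a type and less RNA per cell cannot be told apart.

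The promoters show which of the family's known response elements lie close to the start of the genes that the results turn on. The 250 bases before each RefSeq start (GRCm38.p6) were searched on both strands for the C/EBP-ATF response element (CARE, TGATGNAA), the cAMP response element (CRE, TGACGTCA), the AP-1 site (TGANTCA), the unfolded protein response element (UPRE, TGACGTGG) and the ER stress element (ERSE). All but the ERSE begin with the same letters, but no stretch matched more than 1 of these motifs in the 10 genes. Atf3 is shown in full, and Chac1 because it holds the same CARE letters as Atf3, on the strand opposite to the gene. Ppp1r15a is shown for its CRE and Hspa5 for its AP-1 site. Each is printed 5′ to 3′ on the gene's strand, with the match in capitals.
Atf3, chr1:191183334-191183583, minus strand: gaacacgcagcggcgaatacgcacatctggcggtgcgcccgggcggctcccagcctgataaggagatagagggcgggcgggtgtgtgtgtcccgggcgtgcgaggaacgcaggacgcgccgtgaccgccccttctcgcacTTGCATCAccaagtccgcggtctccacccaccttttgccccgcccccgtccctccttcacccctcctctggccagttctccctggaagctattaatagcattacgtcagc
Chac1, chr2:119351002-119351101, plus strand: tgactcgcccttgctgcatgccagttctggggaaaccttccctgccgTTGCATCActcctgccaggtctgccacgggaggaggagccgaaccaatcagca
Ppp1r15a, chr7:45526269-45526318, minus strand: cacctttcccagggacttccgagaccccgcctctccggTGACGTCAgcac
Hspa5, chr2:34771850-34771949, plus strand: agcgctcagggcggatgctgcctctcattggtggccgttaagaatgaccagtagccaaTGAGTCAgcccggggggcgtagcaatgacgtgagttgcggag

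The CARE of Atf3 begins 110 bases before the start and that of Chac1 193 bases before it. The motif was found in 2 of the 10 genes and in 3.45% of the 32851 promoters of the RefSeq table. The CRE of Ppp1r15a begins 12 bases before the start, and 1.55% of all promoters hold one. Hspa5, the ER chaperone BiP, has an ERSE 65 bases before its start (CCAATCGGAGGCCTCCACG), a motif in 0.113% of all promoters, besides its AP-1 site at 182 bases. Ddit3 has an AP-1 site 242 bases before the start, and AP-1 sites are in 6.75% of all promoters. No UPRE was found in the 10 genes (0.563% of all promoters), and no match of any kind in the windows of Atf4, Atf5 (2 starts), Trib3, Sesn2 and Xbp1, which says only that these letters are not in these windows. The RefSeq start of Atf3 lies inside the longer span that the gene annotation gives the gene (chr1:191170296-191218039, mm10, 5 exon blocks), so the window printed is that of the downstream start. That of Hspa5 also lies downstream of the annotated one (chr2:34771970-34777547), and its ERSE falls inside the annotated gene.

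Atf3 encodes a stress-induced bZIP transcription factor, and it had much higher counts after kainate in both fractions. In NeuN+ nuclei it reached 16.7, 15.9 and 8.06 CPM in kainate replicates 1, 2 and 3, against 0.873, 1.32 and 1.58 CPM in the sham replicates. In NeuN- nuclei it reached 76.9, 28.4 and 23.04 CPM in the kainate replicates, against 2.56 and 2.68 CPM in sham replicates 1 and 3. The 4 groups did not overlap at all. From low to high the order was sham NeuN+, sham NeuN-, kainate NeuN+ and kainate NeuN-, and the lowest kainate library of either fraction lay above the highest sham library of both. The deposited counts behind these values were 179 to 625 reads in kainate NeuN+, 13 to 49 in sham NeuN+, 820 to 1227 in kainate NeuN- and 40 to 54 in sham NeuN- nuclei.

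The log2 fold change of Atf3 between kainate and sham was 3.41 (standard error 0.52, FDR = 0.0566) in NeuN+ and 4.03 (standard error 0.63, FDR = 0.0763) in NeuN- nuclei. Atf3 was the 1 member called in each fraction, where 0.165% and 0.101% of all genes tested were called. With the replicate number as a block the values were 3.32 (FDR = 2.73e-11) and 3.99 (FDR = 6.15e-11). Kainate NeuN- replicate 2 has no sham library of its number, so every NeuN- value with this block rests on 2 pairs. Over 21 other fits Atf3 was called in 19 in NeuN+ and in 18 in NeuN- nuclei, with log2 fold changes of 2.98 to 3.68 and 3.22 to 4.25. It lost the call in NeuN+ nuclei without sham NeuN+ replicate 2 (FDR = 0.556) or 3 (FDR = 0.406), and in NeuN- nuclei without sham NeuN- replicate 1 (FDR = 0.387), without both libraries of low input (FDR = 0.641) and when the fraction was fitted on its own (FDR = 0.707). At FDR below 0.05 it was called in neither fraction. The difference between the effects in the fractions was -0.62 on the log2 scale (standard error 0.73, FDR = 1.00), so the test did not separate the fractions.

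Ratios within a pair of libraries of one number showed how far the size of the Atf3 response varied. Kainate exceeded sham in 5 of 5 pairs, by 19.2, 12.1 and 5.10 times in NeuN+ pairs 1, 2 and 3 and by 30.1 and 8.61 times in NeuN- pairs 1 and 3. Pair 1 had the largest ratio in both fractions. Without the 4 libraries numbered 1, an analysis added after the data were seen, the log2 fold changes were 2.98 (FDR = 6.38e-09) in NeuN+ and 3.28 (FDR = 7.97e-06) in NeuN- nuclei. That fit, like the one without both libraries of low input, keeps 1 sham NeuN- library (replicate 3), which is assumed to vary like the other groups, so its NeuN- values set 2 kainate libraries against 1 and are no replicated test of the sham side.

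**Figure D1:**
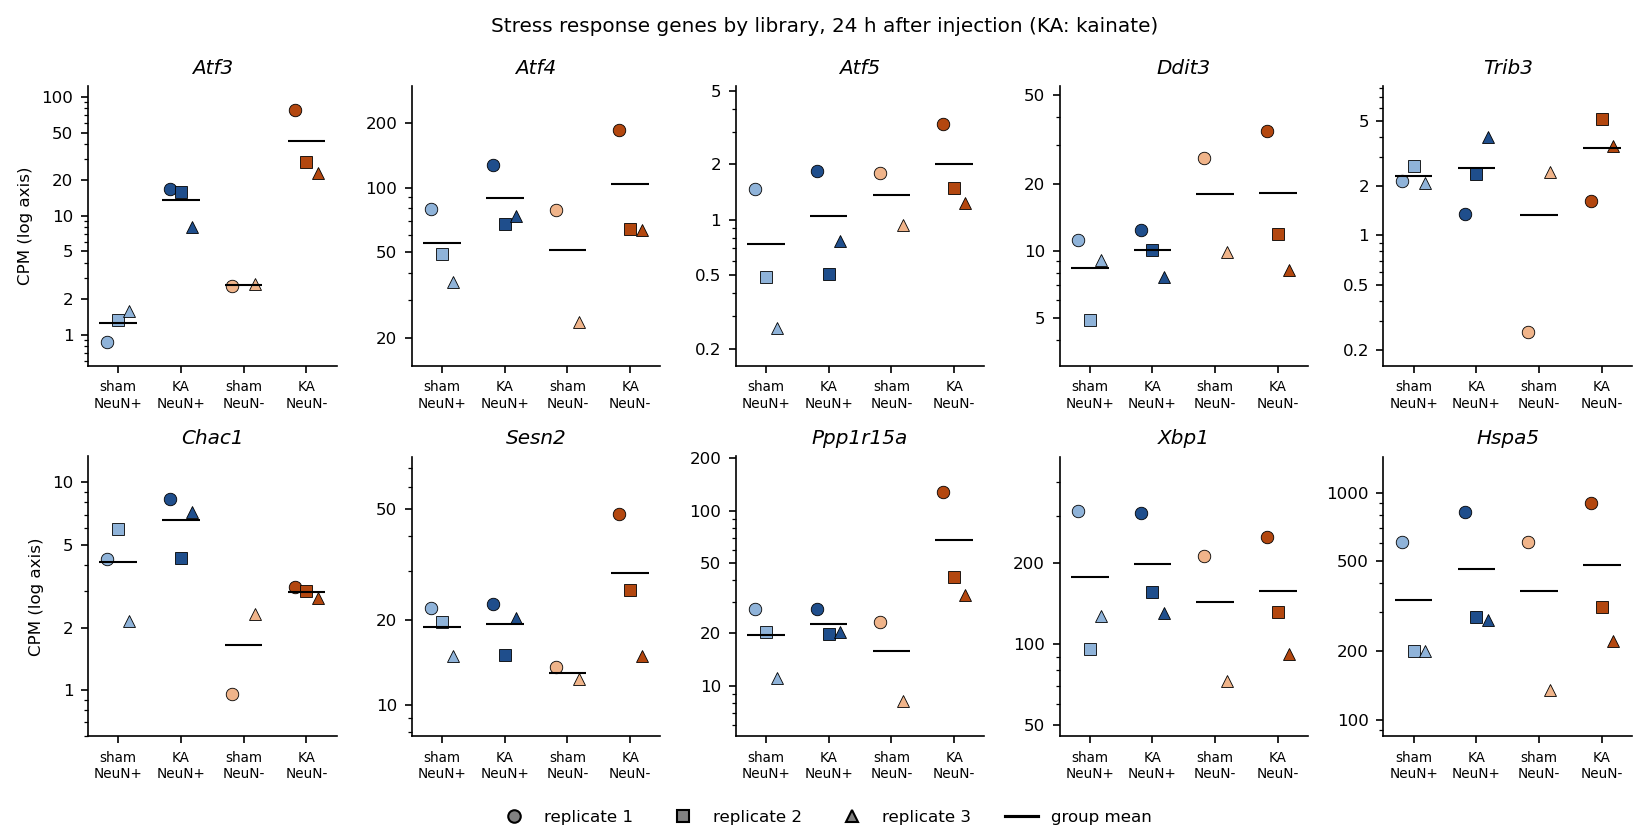
CPM of the 10 genes in each library on log axes, by group (KA is kainate), with 1 symbol per replicate number and a bar at the group mean. The 4 groups of Atf3 do not overlap, Ppp1r15a stands clear of sham in NeuN- but not in NeuN+ nuclei, and the circles of replicate 1 are the highest of every group for Hspa5 and Xbp1.

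The summed levels of astrocyte and microglia markers were higher in kainate than in sham NeuN+ nuclei, but single markers differed in direction. The summed CPM of 6 astrocyte markers was 252 to 410 in kainate and 170 to 234 in sham NeuN+ nuclei, and that of 5 microglia markers 31.9 to 49.1 and 25.1 to 29.0. Of the 6 astrocyte markers, 4 were higher in kainate NeuN+ nuclei in 3 of 3 pairs, Slc1a2, Gfap and Aqp4 without overlap and Aldh1l1 with overlap, whereas Slc1a3 (14.3, 20.1 and 45.4 CPM against 31.6, 26.5 and 61.6 CPM) and Gja1 were lower in 3 of 3 pairs. Of the microglia markers, Csf1r was higher without overlap (16.6, 24.0 and 30.2 CPM against 7.99, 12.1 and 12.02 CPM), by about as much as the whole sum, and P2ry12 was lower without overlap (2.42, 1.76 and 1.89 CPM against 4.36, 2.44 and 2.90 CPM). None of these markers was called without the block. No marker was at 0 in any group. For 5 oligodendrocyte markers the ranges overlapped, 185 to 421 in kainate and 230 to 439 in sham NeuN+ nuclei. In NeuN- nuclei the sums were lower after kainate in 2 of 2 pairs for astrocytes, microglia, oligodendrocytes and their precursors, although the ranges overlapped between treatments, with 625 to 3126 and 1047 to 3999 for astrocytes, 463 to 1379 and 503 to 2629 for microglia, and 4631 to 25862 and 8319 to 36814 for oligodendrocytes, kainate first. Within the astrocyte list, Gfap was higher after kainate without overlap (857, 608 and 278 CPM against 232 and 87.9 CPM), and Aqp4 was higher in 2 of 2 pairs. The part of these cells in the Atf3 values was not tested.

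Atf4 encodes the central transcription factor of the pathway, whose activity is set largely by translation rather than by mRNA. Its mRNA reached 127, 67.6 and 73.7 CPM in kainate and 79.8, 49.3 and 36.4 CPM in sham NeuN+ nuclei, and 185, 63.9 and 63.4 CPM in kainate and 78.7 and 23.8 CPM in sham NeuN- nuclei. The groups overlapped in both fractions because the sham library of replicate 1 lay above kainate libraries of other numbers. Within each number, kainate exceeded sham in 5 of 5 pairs, by 1.37 to 2.03 times in NeuN+ and 2.35 and 2.67 times in NeuN- nuclei.

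Atf4 was not called without the block, where its value was 0.70 on the log2 scale (standard error 0.54, FDR = 1.00) in NeuN+ and 1.02 (standard error 0.62, FDR = 1.00) in NeuN- nuclei. With the replicate block it was called in both, at 0.71 (standard error 0.19, FDR = 0.0159) and 1.32 (standard error 0.23, FDR = 8.35e-05). Without the 4 libraries numbered 1 it was 0.65 (FDR = 0.734) in NeuN+ nuclei and, against 1 sham library, 1.44 (FDR = 0.201) in NeuN- nuclei. In NeuN- nuclei its value ran from 0.17 without kainate replicate 1 to 2.16 without sham replicate 1, and was 2.41 without both libraries of low input, none of them called. The range in NeuN+ nuclei was 0.36 without kainate replicate 1 to 1.06 without sham replicate 1. The difference between the fractions was not called in any of the fits.

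Atf5 and Ddit3 encode bZIP transcription factors as well, and neither was called for kainate in any fit. Atf5 was near the limit of detection, with 8 to 53 reads per library and at most 3.32 CPM. Its log2 fold change was 0.50 (standard error 0.80) in NeuN+ and 0.56 (standard error 0.89) in NeuN- nuclei, so the data do not narrow it down. Ddit3 reached 12.4, 10.1 and 7.61 CPM in kainate and 11.1, 4.88 and 9.09 CPM in sham NeuN+ nuclei. In NeuN- nuclei it reached 34.4, 11.9 and 8.23 CPM in kainate and 26.1 and 9.87 CPM in sham libraries, and the groups overlapped in both fractions. Its log2 fold change was 0.27 (standard error 0.54) in NeuN+ and 0.011 (standard error 0.61) in NeuN- nuclei, the smallest of the 10 genes in the latter. Ddit3 shares 186 of its 1713 exon bases and Atf5 164 of 1993 with exons of other annotated genes. Of the Ddit3 bases, 105 are shared with a second annotated gene of that name on the same strand. The library kit does not keep strand, so overlaps on the opposite strand count as well. The reads of Ddit3 and Atf5 are therefore less certain than those of the others.

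Ppp1r15a encodes GADD34, the subunit that brings protein phosphatase 1 to eIF2α and so ends the response. In NeuN- nuclei it reached 128, 42.1 and 33.2 CPM in kainate against 23.3 and 8.23 CPM in sham libraries, without overlap. In NeuN+ nuclei it reached 27.6, 19.7 and 20.2 CPM in kainate and 27.3, 20.2 and 11.1 CPM in sham libraries, and the groups overlapped. The pair ratios were 5.48 and 4.03 in NeuN- nuclei, and 1.01, 0.973 and 1.82 in NeuN+ nuclei.

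The log2 fold change of Ppp1r15a in NeuN- nuclei was 2.10 (standard error 0.65, FDR = 1.00), the second largest of the 10 genes, and it was not called. DESeq2's Wald test called it (2.01, FDR = 0.148), as did the fit with the replicate block (2.24, standard error 0.27, FDR = 3.79e-08). Without the 4 libraries numbered 1, against 1 sham library, it was 2.21 (FDR = 0.00333). Leaving out single libraries gave 1.13 (without kainate NeuN- replicate 1) to 3.07 (without sham NeuN- replicate 1), and leaving out both of low input 3.31, none of them called. In NeuN+ nuclei it was 0.20 (standard error 0.53, FDR = 1.00) and was called in no fit. The difference between the fractions was -1.90 (standard error 0.82, FDR = 1.00) without and -1.96 (standard error 0.34, FDR = 0.000325) with the block. With the block this was the 1 member of 10 that differed between the fractions, where 1.94% of all genes did. That fit treats the fractions of a pool as independent, and its NeuN- side rests on 2 pairs. Without the block no member was called for this difference, 1 had an unadjusted p under 0.05, DESeq2 called none, and 0.00246% of all genes were called.

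Sesn2 encodes a stress-induced inhibitor of mTORC1 signaling. In NeuN- nuclei it reached 48.1, 25.6 and 14.9 CPM in kainate and 13.6 and 12.3 CPM in sham libraries, without overlap but with the lowest kainate library close to sham. In NeuN+ nuclei the ranges were 15.0 to 22.9 CPM in kainate and 15.0 to 22.2 CPM in sham libraries, nearly the same. The log2 fold change in NeuN- nuclei was 1.18 (standard error 0.47, FDR = 1.00) without and 1.05 (standard error 0.31, FDR = 0.0473) with the block, and 0.73 (FDR = 1.00) without the 4 libraries numbered 1, against 1 sham library. In NeuN+ nuclei it was 0.038 (standard error 0.40).

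Chac1 and Trib3 are typical targets of ATF4 and CHOP, the first an enzyme that degrades glutathione, the second a pseudokinase that restrains AKT signaling. Chac1 reached 3.14, 2.99 and 2.78 CPM in kainate against 0.959 and 2.33 CPM in sham NeuN- nuclei, from 15 to 99 reads, without overlap. In NeuN+ nuclei it reached 8.32, 4.33 and 7.16 CPM in kainate and 4.30, 5.97 and 2.16 CPM in sham libraries, with overlap. The log2 fold changes were 0.67 (standard error 0.51) and 0.84 (standard error 0.59) in NeuN+ and NeuN- nuclei, and Chac1 was called for kainate in no fit. Trib3 had 4 to 151 reads per library and reached 1.35 to 4.01 CPM in kainate and 2.10 to 2.64 CPM in sham NeuN+ nuclei. In NeuN- nuclei Trib3 reached 1.63, 5.12 and 3.51 CPM in kainate and 0.256 and 2.43 CPM in sham libraries, with overlap. Sham NeuN- replicate 1, a library of low input, held 4 of its reads. The log2 fold change of Trib3 there was 1.34 (standard error 0.83), and 0.11 without both such libraries, and in NeuN+ nuclei it was 0.17 (standard error 0.71). Trib3 was called for kainate in 1 fit, in NeuN- nuclei without sham NeuN- replicate 3 (3.71, FDR = 0.231), where the median of all genes tested was itself 0.76.

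Hspa5 and Xbp1 report on the endoplasmic reticulum. Hspa5 encodes the chaperone BiP, and Xbp1 the transcription factor whose mRNA is cut by IRE1, a splicing step that counts per gene do not show. Hspa5 reached 828, 284.5 and 274 CPM in kainate and 606, 201 and 200.5 CPM in sham NeuN+ nuclei, and 905, 314 and 223 CPM in kainate and 607 and 135 CPM in sham NeuN- nuclei. Replicate 1 was 2.96 to 4.49 times the mean of the other libraries of its group, so the groups overlapped throughout. Within numbers the ratios of kainate to sham were close to each other, at 1.37, 1.42 and 1.37 in NeuN+ and 1.49 and 1.65 in NeuN- nuclei.

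The log2 fold change of Hspa5 was 0.46 (standard error 0.70, FDR = 1.00) in NeuN+ and 0.37 (standard error 0.79, FDR = 1.00) in NeuN- nuclei. With the replicate block it was called in both, at 0.47 (standard error 0.17, FDR = 0.200) and 0.65 (standard error 0.21, FDR = 0.0996), and without the 4 libraries numbered 1 in neither (0.40, FDR = 0.970, and 1.00, FDR = 0.825). Xbp1 was called for kainate in no fit. It reached 308, 157 and 131 CPM in kainate and 312, 96.4 and 127 CPM in sham NeuN+ nuclei, and 250, 132 and 91.9 CPM in kainate and 214 and 72.9 CPM in sham NeuN- nuclei. Its pair ratios were 0.987 to 1.63 and its log2 fold changes 0.16 (standard error 0.56) and 0.14 (standard error 0.63).

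**Figure D2:**
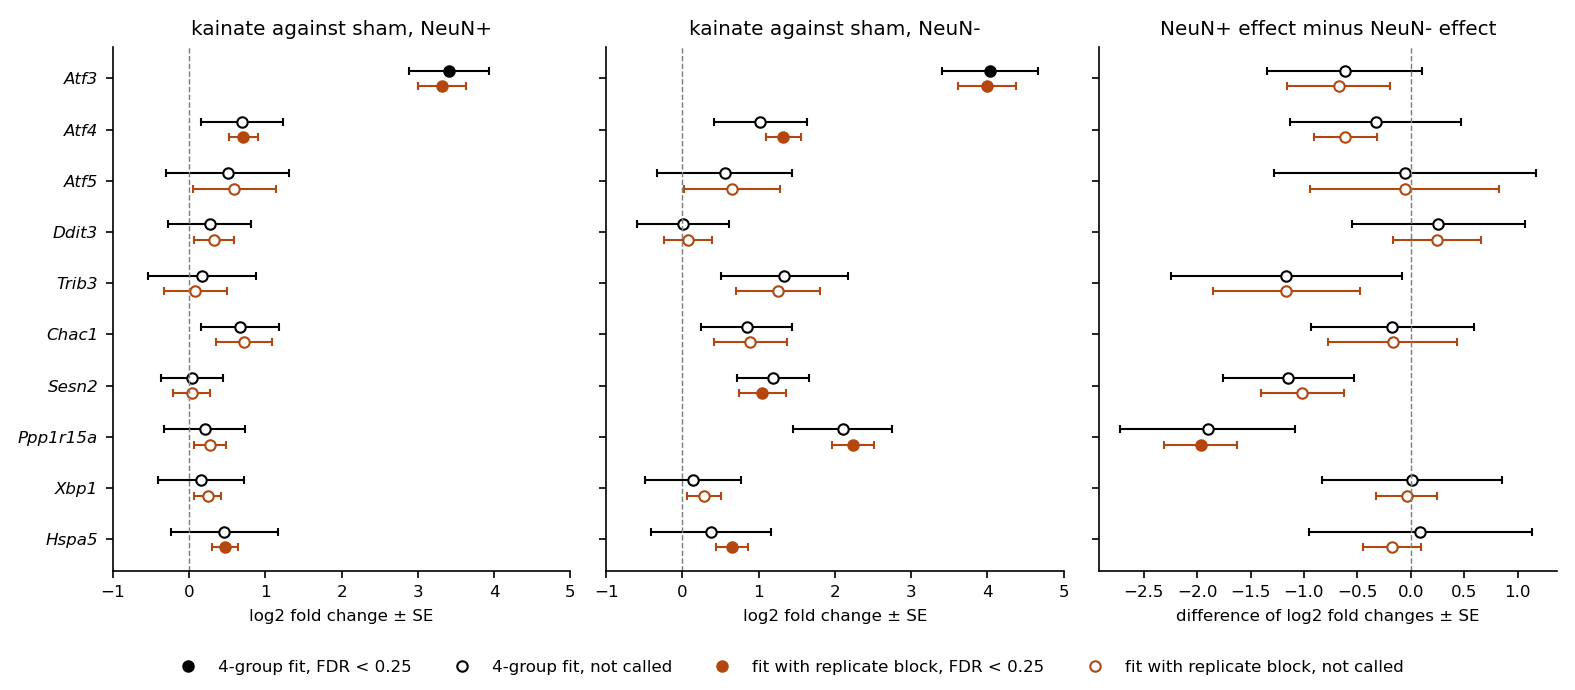
Log2 fold changes with their standard errors for kainate against sham in NeuN+ (left) and NeuN- nuclei (middle), and the difference of these effects (right), from the fit of 4 group means (black) and the fit with the replicate block (orange). Filled points have an FDR below 0.25, which without the block are those of Atf3 alone and with the block include Atf4 and Hspa5 in both fractions and Ppp1r15a and Sesn2 in NeuN- nuclei.

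Over the 10 genes, the log2 fold change in the fit of 4 group means was above 0 in 10 of 10 in both fractions, with medians of 0.36 in NeuN+ and 0.93 in NeuN- nuclei, beside -0.015 and 0.023 for all genes tested. The share of all genes above 0 was not computed, and leaving out single libraries took some of the 10 below 0 in each fraction. With the replicate block, 3 members were called in NeuN+ nuclei (Atf3, Atf4 and Hspa5), where 5.09% of all genes were called, and 5 in NeuN- nuclei (also Ppp1r15a and Sesn2), where 5.79% were. All of these were higher after kainate, and the NeuN- calls rest on 2 pairs, since kainate NeuN- replicate 2 has no sham library of its number. The median of all genes tested with the block was 0.11 in NeuN- nuclei, and the values of the members there stand against that shift. No overlap, with kainate the higher, was seen for 1 of 10 members in NeuN+ nuclei (Atf3), beside 4.26% of all genes, and for 4 of 10 in NeuN- nuclei (Atf3, Ppp1r15a, Sesn2 and Chac1), beside 4.70%, where there were only 2 sham libraries to exceed. Kainate exceeded the sham library of the same number in 5 of 5 pairs for Atf3, Atf4, Atf5 and Hspa5, in 4 for Ppp1r15a, Sesn2, Chac1 and Xbp1, and in 3 for Ddit3 and Trib3. The 5 pairs are not independent, since the fractions of a number share their pools. The share of all genes with such counts of pairs was not computed.

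**Figure D3:**
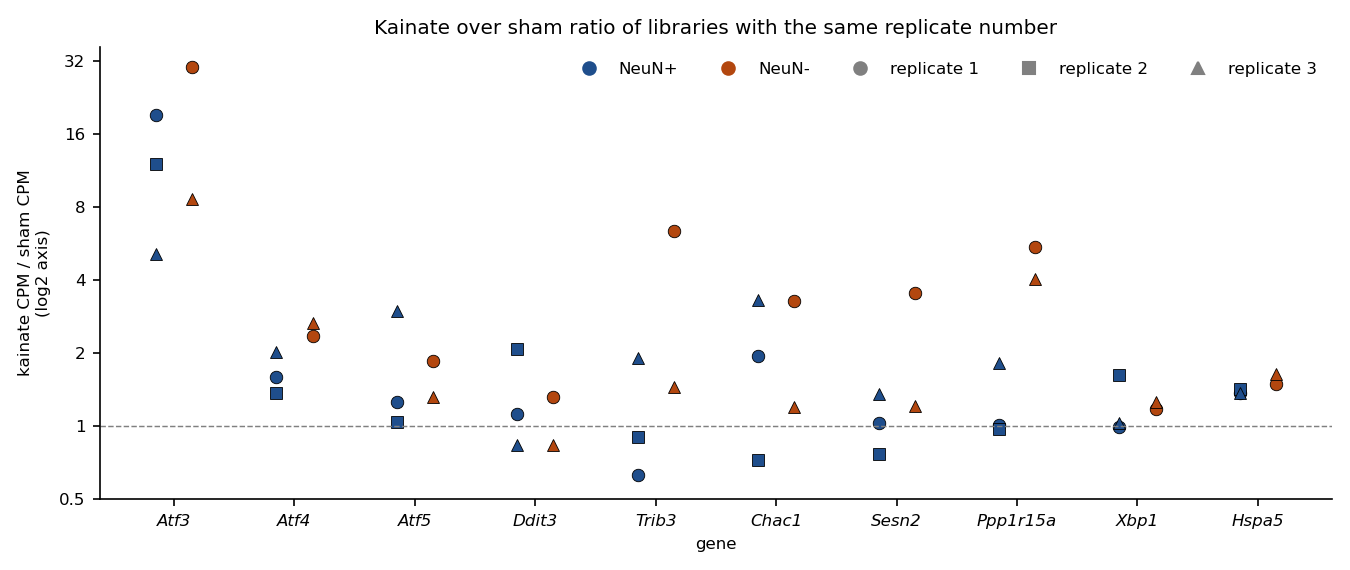
Ratio of kainate to sham CPM for libraries of the same replicate number (log2 axis, dashed line at 1), in 3 pairs of NeuN+ and 2 of NeuN- libraries. The ratios of Atf3 run from 5.10 to 30.1, those of Hspa5 stay between 1.37 and 1.65, and those of Ppp1r15a are at least 4.03 in NeuN- but at most 1.82 in NeuN+ nuclei.

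Between the fractions over both treatments, Atf3 and Ddit3 were lower and Chac1 higher in NeuN+ than in NeuN- nuclei, 3 members of 10 called where 37.2% of all genes were. The log2 fold changes were -1.35 (standard error 0.36, FDR = 0.0173) for Atf3, -0.98 (standard error 0.41, FDR = 0.125) for Ddit3 and 1.24 (standard error 0.40, FDR = 0.0453) for Chac1. Atf3 and Chac1 were called in 20 of 20 other fits. Ddit3 was called in 16, and its value was -0.22 (FDR = 0.538) without the 4 libraries numbered 1 and -0.64 (FDR = 0.302) without both libraries of low input. With the pool as a block, which pairs the fractions of the same animals, Atf5 (-1.01, FDR = 0.0890), Ppp1r15a (-0.50, FDR = 0.107) and Xbp1 (0.51, FDR = 0.0300) were also called, 6 of 10 members where 59.7% of all genes were. Both shares were close to or below those of all genes. Over all genes tested the median of this contrast was -0.47, so NeuN- nuclei had the higher value for most genes in this fit. The sign depended on 1 library, since the median was 0.24 without sham NeuN- replicate 3.

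Per length the order of the genes was much the same in all 4 groups, with Hspa5 at the top and Atf5 near the bottom. In sham NeuN+ nuclei the mean level was 79.4 ± 55.3 RPKM (CPM per kilobase of exon, SD, n = 3) for Hspa5, 54.9 ± 35.8 for Xbp1 and 23.4 ± 9.45 for Atf4. Ppp1r15a (6.65 ± 2.77), Sesn2 (5.45 ± 1.05) and Ddit3 (4.89 ± 1.86) followed, and these 3 did not differ beyond their spread. Chac1 (2.53 ± 1.17), Trib3 (1.08 ± 0.142), Atf3 (0.584 ± 0.166) and Atf5 (0.372 ± 0.325) were lowest. Atf3 thus ranked next to last in sham NeuN+ nuclei, while in kainate NeuN- nuclei, at 19.9 ± 13.8 RPKM (n = 3), it was of the same order as Ppp1r15a (23.02 ± 17.7) and Atf4 (44.2 ± 29.8), within their spread.

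**Figure D4:**
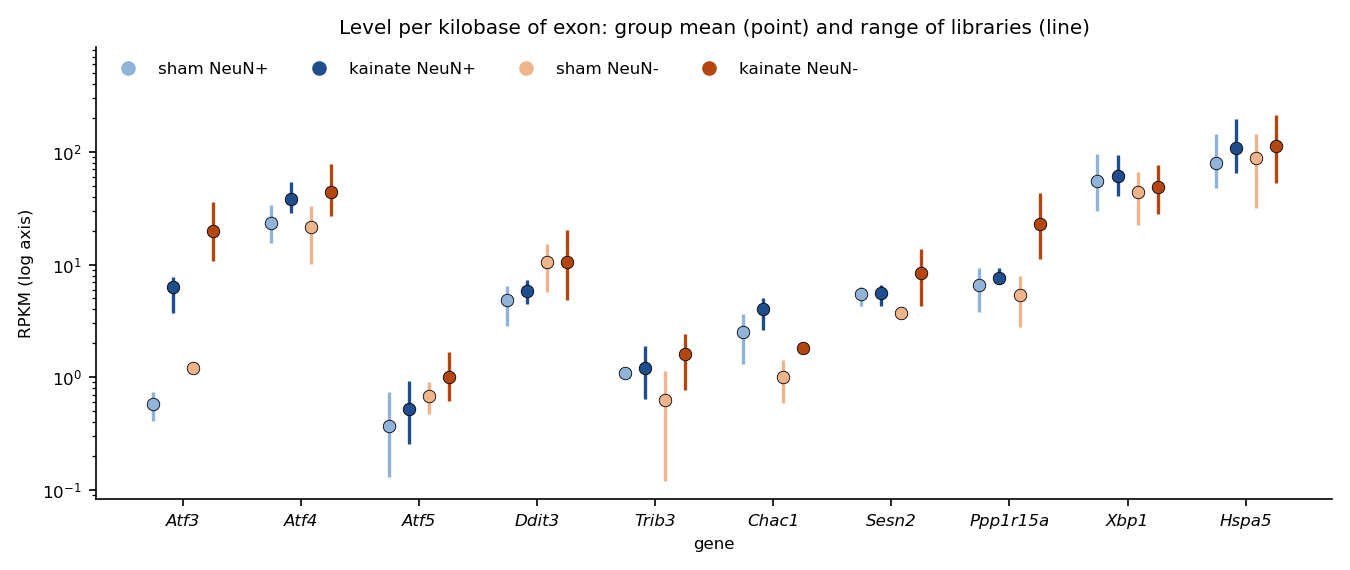
Level per kilobase of exon (RPKM, log axis) of each gene in the 4 groups, with the mean as a point and the lowest to highest library as a line. Atf3 moves from 0.584 RPKM in sham NeuN+ to 19.9 in kainate NeuN- nuclei, while Hspa5 and Xbp1 stay the 2 highest genes in every group.

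The wider pathway was described by 4 lists, and no gene of them was called for kainate in either fraction in the fit of 4 group means. In the list of 13 genes of the eIF2α kinases and translation control (the kinases themselves, eIF2B subunits and Ppp1r15b), none had an unadjusted p under 0.05 in either fraction and DESeq2 called none. The medians of the log2 fold change were 0.15 in NeuN+ and 0.20 in NeuN- nuclei. The 3 smallest p were those of Eif2b3 (0.29, standard error 0.36), Eif2b2 (0.24, standard error 0.35) and Ppp1r15b (0.31, standard error 0.49) in NeuN+ nuclei, and of Eif2b2 (0.63, standard error 0.40), Eif2b4 (0.58, standard error 0.52) and Eif2s1 (0.47, standard error 0.45) in NeuN- nuclei. With the block Eif2b2 and Eif2b4, subunits of the exchange factor that phosphorylated eIF2α blocks, were called in NeuN- nuclei (FDR = 0.176 and 0.232), beside 5.79% of all genes.

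Of 38 target genes of ATF4 and CHOP, 37 were tested. In NeuN+ nuclei 1 had an unadjusted p under 0.05, beside 2.09% of all genes, and DESeq2 called none, beside 0.884% of all genes, with a median of 0.15. In NeuN- nuclei 7 had an unadjusted p under 0.05, beside 2.05% of all genes, and DESeq2 called 4, all higher, beside 0.624%, with a median of 0.26. Without the 4 libraries numbered 1, 1 was called in NeuN+ and, against 1 sham library, 5 in NeuN- nuclei, all higher, beside 2.28% and 1.08% of all genes. Genes were called lower with the replicate block alone among these fits. It called 2 higher and 3 lower in NeuN+ nuclei, beside 1299 higher and 773 lower over all genes (5.09% together), and 11 higher and 7 lower in NeuN- nuclei, beside 1194 and 1163 (5.79%).

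Cebpb, a C/EBP transcription factor that pairs with ATF4, had the largest of these values by test in NeuN- nuclei. It reached 63.2, 37.4 and 32.6 CPM in kainate against 10.7 and 6.40 CPM in sham libraries, without overlap. Its value of 2.38 on the log2 scale (standard error 0.54, FDR = 0.418) was called with the block (2.46, FDR = 6.68e-09). In NeuN+ nuclei it was 0.94 (standard error 0.44, FDR = 1.00), and 1.07 (FDR = 0.000766) with the block. The arginine and lysine transporter gene Slc7a1 (1.27, standard error 0.35) and the mitochondrial folate enzyme gene Aldh1l2 (1.62, standard error 0.45) followed in NeuN- nuclei, and the block called both (FDR = 0.00425 and 0.00184). In NeuN+ nuclei the 3 smallest p also included Pck2, a mitochondrial enzyme of gluconeogenesis, and Bbc3, which encodes the cell death protein PUMA, and both values were negative. They were -0.93 (standard error 0.40) and -0.89 (standard error 0.52), and the block called them lower (FDR = 0.00130 and 0.0461). With the block, Slc7a5 (0.66) and Phgdh (-0.72) were also called in NeuN+ nuclei. In NeuN- nuclei the other genes called higher with the block were Gdf15 (2.49), Gadd45a (1.87), Nupr1 (1.07), Slc3a2 (1.04), Slc7a5 (1.00), Asns (0.86), Ero1l (0.69) and Eprs (0.58). Those called lower were Phgdh (-1.21), Slc6a9 (-0.90), Gpt2 (-0.74), Slc7a11 (-0.67), Pck2 (-0.63), Psat1 (-0.60) and Vldlr (-0.59). Gadd45a, which encodes a stress and DNA damage response protein, reached 37.4, 24.3 and 20.1 CPM in kainate against 11.6 and 4.81 CPM in sham NeuN- nuclei, without overlap, and Gdf15, a stress-induced cytokine gene, had 1 read in sham NeuN- replicate 1. For the difference between the fractions, the block alone called Cebpb (-1.39), Gadd45a (-1.49), Gdf15 (-3.15), Slc6a9 (1.06) and Vldlr (0.89), beside 1.94% of all genes.

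The list of the IRE1, XBP1 and ATF6 arms and the ER chaperones (31 genes) had no gene with an unadjusted p under 0.05 in either fraction, and DESeq2 called none. Its medians were 0.12 in NeuN+ and -0.037 in NeuN- nuclei. The smallest p belonged to P4hb (0.69, standard error 0.62), Crebrf (-0.44, standard error 0.49) and Atf6b (-0.38, standard error 0.43) in NeuN+ nuclei, and to Hyou1 (0.53, standard error 0.38), Ern1 (0.47, standard error 0.34) and Derl2 (-0.49, standard error 0.47) in NeuN- nuclei. P4hb, a protein disulfide isomerase, was the 1 of 31 genes that the block called, beside 5.09% of all genes in NeuN+ and 5.79% in NeuN- nuclei, in NeuN+ (0.76, FDR = 0.00639) and in NeuN- nuclei (0.71, FDR = 0.0748).

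Among 14 ATF, CREB and JDP relatives of Atf3, 3 had an unadjusted p under 0.05 in NeuN+ nuclei, beside 2.09% of all genes, and DESeq2 called 2, beside 0.884%. In NeuN- nuclei none had such a p and DESeq2 called none. The medians were 0.16 and 0.078. Creb3l1, a membrane-bound factor of the ER and Golgi, reached 7.47, 4.84 and 7.03 CPM in kainate against 2.28, 2.99 and 1.90 CPM in sham NeuN+ nuclei, without overlap. Batf3, whose protein dimerizes with JUN, reached 3.34, 4.89 and 4.05 CPM against 1.88, 1.26 and 1.32 CPM, also without overlap. Their log2 fold changes of 1.42 (standard error 0.44) and 1.47 (standard error 0.47) and that of Creb3l2 (0.82, standard error 0.36) were called with the block (FDR = 0.00433, 0.0105 and 0.00720), beside 5.09% of all genes. In NeuN- nuclei the smallest p were those of Crem (0.75, standard error 0.37), which the block called (FDR = 0.200), Atf7 (-0.43, standard error 0.39) and Creb3l2 (0.43, standard error 0.40). For the difference between the fractions, the block alone called Batf3 (1.73), beside 1.94% of all genes.

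The medians of these lists in NeuN- nuclei depended on the libraries kept. Without both libraries of low input they were 0.88 for the eIF2α list, 0.96 for the targets, 1.20 for the ER list and 0.40 for the relatives, beside -0.097 for all genes, and no gene of the 4 lists was called. They were, without the 4 libraries numbered 1, 0.60, 0.43, 0.57 and 0.25, beside 0.00038 for all genes. Both fits rest on 1 sham NeuN- library, and the cause of these moves was not tested. In NeuN+ nuclei the medians without the 4 libraries numbered 1 were 0.065, 0.16, 0.079 and 0.11, beside -0.078 for all genes.

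**Figure D5:**
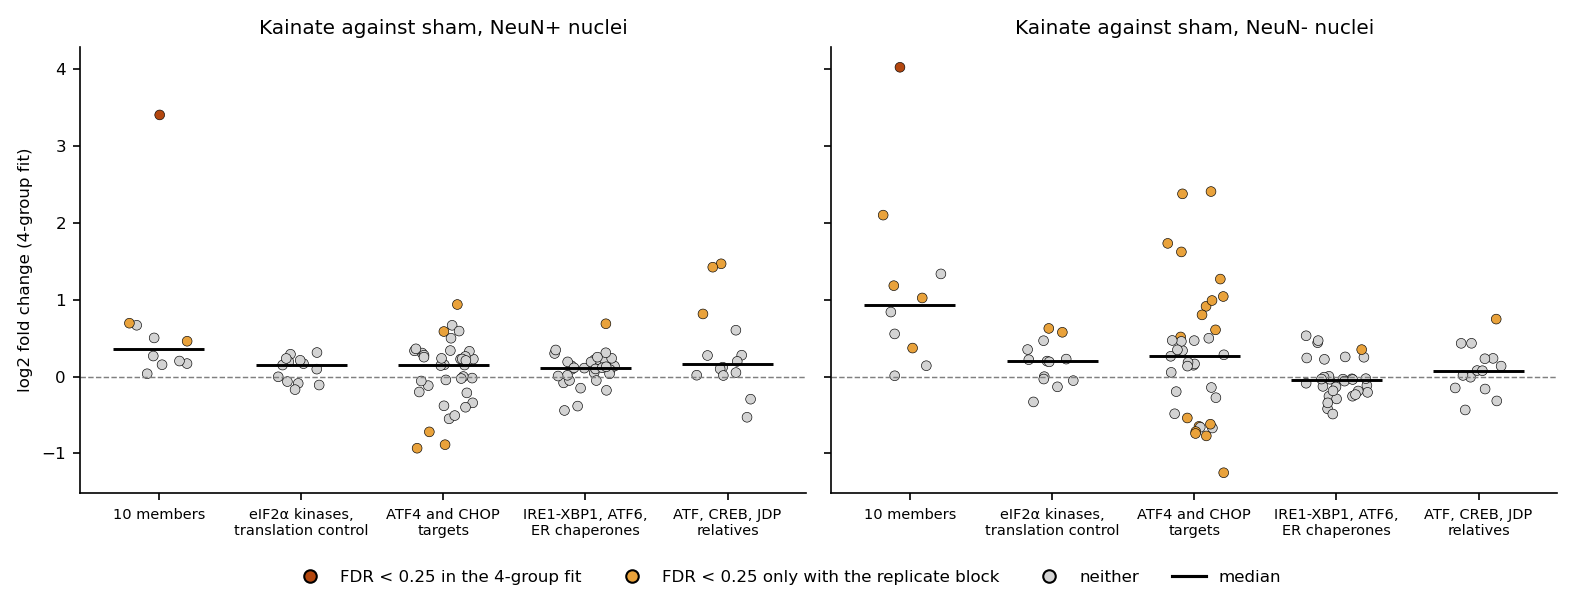
Log2 fold change of kainate against sham in the fit of 4 group means for the 10 genes and 4 pathway lists, in NeuN+ (left) and NeuN- nuclei (right), 1 point per gene with a bar at the median. Red marks genes called in that fit (Atf3 in both panels), orange those called only with the replicate block, which in the list of ATF4 and CHOP targets in NeuN- nuclei lie on both sides of 0.

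Across the 11 libraries, the genes whose log2 CPM followed that of Atf3 most closely were Socs3 (Pearson r = 0.962), Klf4 (0.959), Adamts1 (0.953), Csrnp1 (0.952) and Sulf1 (0.937), out of 23236 genes with a mean log2 CPM of at least 0. These are correlations over libraries that share groups, pools and fractions, given as a description. Socs3, which encodes a feedback inhibitor of cytokine signaling, reached 39.8 to 91.1 CPM in kainate and 3.06 to 3.22 CPM in sham NeuN+ nuclei, and 375 to 650 CPM in kainate and 10.3 to 10.7 CPM in sham NeuN- nuclei. Of the other members, Ppp1r15a was nearest to Atf3 (r = 0.704, rank 314), followed by Atf4 (0.588, rank 777), Sesn2 (0.546, rank 1021) and Atf5 (0.515, rank 1251). Ddit3 (0.415), Hspa5 (0.332), Trib3 (0.225), Chac1 (0.149) and Xbp1 (0.130) were further away.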

How the data were processed

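The deposited values are raw counts per gene, whole numbers that the authors made with Trim Galore 0.4.3, Rsubread on mm10 and featureCounts (unique reads, GENCODE M16). The 105 genes that had no symbol were dropped, and filterByExpr (minimum count 10, minimum total count 15) kept 40714. Counts were TMM-scaled and fitted with edgeR 4.0.16 (glmQLFit, legacy=TRUE, R 4.3.3) as 4 group means, with Benjamini-Hochberg FDR over all genes tested (common biological coefficient of variation 0.600). The study's methods fit neurons and glia apart, which is an alternative here, as are DESeq2 1.42.0 and others. The study kept only genes with an official HGNC symbol, a smaller set. The separate fit here tested 39857 genes in NeuN- nuclei, so it does not repeat the study's test.

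Same-numbered kainate and sham libraries deviated together (r = 0.643, 0.161 and 0.491 in NeuN+, 0.760 and 0.787 in NeuN- nuclei), and the fractions of a number share a pool, so blocked values of the members are given where a call changes. Numbers 2 and 3 were not set apart in NeuN+ nuclei (kainate 2 with sham 3, r = 0.166, kainate 3 with sham 2, r = 0.418), and with 2 sham NeuN- libraries the deviations mirror each other, so the pairing rests mainly on number 1. In NeuN- nuclei the replicate block rests on pairs 1 and 3, and pair 1 sets a sham library of 0.05 ng against a kainate library of 1 ng. That fit keeps 3 residual degrees of freedom, and its spread is mostly borrowed over genes (median prior degrees of freedom 48.03). Without a block, p-values cover the spread between pools, and the fit of group means treats the fractions of a pool as independent. With the replicate block, they cover only the spread left once kainate and sham pools of different mice are matched by number.

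The members and lists were chosen with earlier results of these data known. Named besides the members are, per list and fraction, the genes called or else the 3 with the smallest p, those the block called, and the 5 nearest Atf3. List genes named only for the block were picked after their values were seen. Only the edgeR fits without a block and with the replicate block were run on simulated counts, which held no shared effect of replicate number. The outcome is not given here, and the other fits were not run in this way. Promoters are RefSeq sequences (GRCm38.p6).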

Additional observations from a re-analysis of the deposited data

Results flagged for a closer look

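Ppp1r15a met the rule for a kainate effect that differs between the fractions. With the replicate block, its effect in NeuN+ nuclei minus that in NeuN- nuclei was -1.96 on the log2 scale (standard error 0.34, FDR = 0.000325), higher after kainate in 2 of 2 NeuN- pairs by 4.03 and 5.48 times and in 2 of 3 NeuN+ pairs by at most 1.82 times. Without the block the difference was -1.90 and was not called (FDR = 1.00), and without the 4 libraries numbered 1 it was -1.94 (FDR = 0.399), with 1 sham NeuN- library left. Over 20 other fits it ranged from -3.11 to -0.96 and was called in 1. The fit with the replicate block treats the fractions of a pool as independent, and its NeuN- side rests on 2 pairs. Groups of 2 or 3 libraries are too small for the test of single deviating samples.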

How the results depend on the processing

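For kainate against sham, 67 genes were called in NeuN+ and 41 in NeuN- nuclei, and Atf3 was the 1 member in each. With the replicate block, 2072 and 2357 genes and 3 and 5 members were called, 788 genes and 1 member for the difference between fractions (1 gene and no member without it), and with the pool as block 24313 genes and 6 members between fractions (15159 and 3 without it). The block changed no other call of a member. DESeq2's Wald test called 360, 254 and 31 genes in the first 3 comparisons, 2 members in NeuN- nuclei and 5 between fractions. A CPM of at least 1 in 3 libraries gave 137 and 67 genes and 5 members between fractions, keeping RefSeq genes only 131 and 62 genes, and the newer quasi-likelihood method 136 and 73 genes and 5 members between fractions. A separate fit per fraction gave 390 genes in NeuN+ and 0 genes and 0 members in NeuN- nuclei. At FDR below 0.05 there were 8, 1, 0 and 6983 genes and 0 members for kainate in either fraction. Without both libraries of low input there were 1 gene and 0 members in NeuN- nuclei and 0 genes for the difference. Without the 4 libraries numbered 1, chosen after the data were seen, there were 1026, 488, 68 and 29502 genes, with 3 members in NeuN- nuclei and 6 between fractions. Leaving out each library gave 5 to 176 genes and 0 to 1 members in NeuN+ nuclei, 1 to 2812 genes and 0 to 2 members in NeuN- nuclei, 0 to 11 genes for the difference, and 11200 to 26560 genes and 2 to 5 members between fractions. The 2812 came without sham NeuN- replicate 3, with a median of 0.76 over all genes. That fit and those without sham NeuN- replicate 1, both libraries of low input or the 4 numbered 1 left 1 sham NeuN- library, which is assumed to vary like the other groups. The cause of the other changes was not tested.

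The log2 fold change of members that were not called changed sign in some fits. Without a filter on low counts this held for Sesn2 in NeuN+ (-0.010) and Ddit3 in NeuN- nuclei (-0.020), with DESeq2 size factors for Ddit3 (-0.082) and the difference of Atf5 (0.051), with DESeq2's test for the same 2 (-0.081 and 0.057), and with the newer quasi-likelihood method too (-0.016 and 0.068). The difference of Xbp1 turned with a CPM of at least 1 (-0.021) and with RefSeq genes only (-0.019). With the replicate block the differences of Hspa5 (-0.18) and Xbp1 (-0.038) turned, and with the pool as block the contrasts between fractions of Hspa5 (0.15), Sesn2 (0.0096) and Atf4 (0.12). Without both libraries of low input the differences were -1.63 (Hspa5), 0.31 (Chac1), 0.065 (Trib3), -0.87 (Ddit3) and -1.10 (Xbp1), and the contrasts between fractions 0.54 (Hspa5), -0.0090 (Trib3) and 0.39 (Atf4). Without the 4 libraries numbered 1, Sesn2 in NeuN+ nuclei was -0.047, the differences were -0.60 (Hspa5), 0.091 (Chac1), 0.12 (Atf5) and -0.35 (Xbp1), and the contrasts between fractions 0.43 (Hspa5), -0.12 (Trib3), 0.27 (Sesn2), 0.13 (Ppp1r15a) and 0.62 (Atf4).

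Leaving out each library moved the kainate effect in NeuN+ nuclei across 0 for Hspa5 (-0.27 to 1.20), Trib3 (-0.29 to 0.47), Sesn2 (-0.11 to 0.19), Atf5 (-0.18 to 1.44), Ppp1r15a (-0.080 to 0.52), Ddit3 (-0.0073 to 0.53) and Xbp1 (-0.31 to 0.83). In NeuN- nuclei it did so for Hspa5 (-0.61 to 1.86), Atf5 (-0.11 to 1.11), Ddit3 (-0.96 to 0.91) and Xbp1 (-0.48 to 1.15). For the difference it did so for Atf3 (-0.84 to 0.10), Hspa5 (-1.40 to 1.04), Chac1 (-0.95 to 0.30), Atf5 (-0.74 to 0.88), Ddit3 (-0.64 to 1.18), Xbp1 (-0.99 to 0.69) and Atf4 (-1.47 to 0.49), and between fractions for Hspa5 (-0.47 to 0.65), Trib3 (-0.22 to 1.37), Sesn2 (-0.40 to 0.26), Xbp1 (-0.016 to 0.83) and Atf4 (-0.36 to 0.52). The kainate effect kept its sign in NeuN- nuclei but ranged widely for Atf4 (0.17 to 2.16), Ppp1r15a (1.13 to 3.07), Sesn2 (0.56 to 1.34), Chac1 (0.37 to 1.61) and Trib3 (0.53 to 3.71), and in NeuN+ nuclei for Atf4 (0.36 to 1.06) and Chac1 (0.36 to 1.04). Low counts limit Atf5, Trib3 and Chac1.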
